A study of Mus musculus with 4 samples.

Results

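Btaf1, the TATA-binding protein gene Tbp and the genes of other TBP relatives and TBP-binding factors were followed in Btaf1 mutant mouse embryos. The members were the genes whose names stand on non-control probes as Btaf1, Tbp, Tbpl1, Dr1, Drap1, Gtf2a1, Gtf2a2, Gtf2b or Cand1. They made up 9 of the 21537 named genes on the array and were read by 19 of its 41174 probes. The mutant pools came from whole embryos carrying V1330M in Btaf1, written Btaf1-/- by the submitters, although the name describes an exchanged amino acid and not a deletion. The wild-type pools came from Btaf1+/+ whole embryos. Embryos of 3 to 5 somites were used where possible, and both genotypes had a mixed C57BL/6J and FVB/NJ background with 50 to 90% FVB/NJ. In the set called age_matched, litter mates were favoured and somite numbers could differ by up to 5, while in the set called stage_matched the somite count had priority. Each of the 2 sets was hybridised on 2 dual-dye arrays, with mutant RNA in Cy5 on replicate 1 and in Cy3 on replicate 2. Both arrays of a set read the same pair of pools, so n = 2 for mutant over wild type, with 1 pair in each set. How many embryos a pool held, and whether the sets shared embryos, is not given in the sources used here.

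TBP is the DNA-binding core of the complexes that start transcription, TFIID for RNA polymerase II, SL1 for RNA polymerase I and TFIIIB for RNA polymerase III. BTAF1, like its yeast counterpart Mot1, is an ATPase of the Snf2 family that lifts TBP off DNA, so that TBP can be used again at another promoter. NC2, made of the products of Dr1 and Drap1, sits on TBP bound to DNA and keeps TFIIA and TFIIB away, while TFIIA (Gtf2a1 and Gtf2a2) and TFIIB (Gtf2b) steady TBP on the promoter. Tbpl1 encodes a TBP-like protein that does not bind a TATA box and that mouse spermatids require, and Cand1 encodes a protein first isolated through its binding to TBP and now known as an exchange factor of cullin ubiquitin ligases.

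The ratios below rest on what each 60-base probe matches, and genes with several probes gave different answers, so the probes behind the main results are printed here. They are shown 5′ to 3′ as the scanner files give them, with their mm9 positions. The Btaf1 probe lies at chr19:37086826-37086885 on the plus strand and is shown because it is the one reading of the mutated gene.
Btaf1 A_51_P493602: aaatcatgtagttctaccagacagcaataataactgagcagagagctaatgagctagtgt

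Tbpl1, a gene of the minus strand of chromosome 10, had 4 probes, all shown because they disagreed. In the direction of transcription, A_51_P422636 at chr10:22431755-22431814 comes first, A_51_P422629 at chr10:22425312-22425371 follows 6443 bases on, and A_52_P64924 at chr10:22424383-22424442 follows another 929 bases on. A_51_P387690 at chr10:22429352-22429411 lies between the first 2 but carries plus-strand sequence, opposite to the gene.
Tbpl1 A_51_P422636: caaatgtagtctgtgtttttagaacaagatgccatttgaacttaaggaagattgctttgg
Tbpl1 A_51_P422629: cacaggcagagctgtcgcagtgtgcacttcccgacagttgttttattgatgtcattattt
Tbpl1 A_52_P64924: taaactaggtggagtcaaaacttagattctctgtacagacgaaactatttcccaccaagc
Tbpl1 A_51_P387690: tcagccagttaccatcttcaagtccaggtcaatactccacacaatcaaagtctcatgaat

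Gtf2a1, also on a minus strand, had 2 probes 414 bases apart, at chr12:92798200-92798259 and chr12:92797786-92797845, shown because the second had the lowest mean ratio of the tested probes and the first was too dim to test.
Gtf2a1 A_51_P133651: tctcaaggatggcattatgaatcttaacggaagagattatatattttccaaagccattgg
Gtf2a1 A_52_P274315: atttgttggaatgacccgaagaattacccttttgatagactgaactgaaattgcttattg

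The 19 probes had a GC content of 35% to 48.3%. The A_51_P461828 probe of Tbp, A_51_P454726 of Gtf2a2 and the Drap1 probe covered a genomic stretch longer than their own 60 bases, 668, 2981 and 200 bases, so that their sequence is joined from separate genomic blocks. No annotation of mm9 was used here, so the exon or untranslated region of a probe is not given.

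All 4 arrays lay on 1 slide with 43379 spots each and 0 saturated spots. The share of spots well above background was 52.9% to 59.6% for mutant RNA and 57.1% to 59.5% for wild-type RNA. Of the 41174 probes, 21930 were tested, and 3.17% of these were called lower and 1.69% higher in mutant embryos (limma, adjusted p under 0.05). That is 370 higher and 696 lower, and the split became 130 higher and 871 lower with median centring in place of loess. Markers of other tissues moved beside the results below. All 7 of 7 markers of visceral endoderm and yolk sac were called lower, with a median log2 ratio of -1.07, and their summed log2 intensity ranged over the arrays from 14.4 to 14.7 in mutant embryos and from 15.8 to 16.0 in wild-type embryos. Of the heart markers 4 of 5 were lower, with summed log2 intensities of 15.04 to 15.72 in mutant and 16.2 to 16.4 in wild-type embryos. Of the somite markers 3 of 5 were higher, with sums of 13.1 to 13.9 in mutant and 12.7 to 12.9 in wild-type embryos. Of the primitive red cell markers 2 of 3 tested were lower, with sums of 11.4 to 12.9 in mutant and 13.8 to 14.1 in wild-type embryos. Of the neural markers 1 of 4 tested was lower, with sums of 10.96 to 11.1 in mutant and 11.2 to 11.4 in wild-type embryos. No trophoblast marker (0 of 3 tested) and no decidua marker (0 of 4 tested) was called, and at unadjusted p under 0.05 the counts were 0 and 1. Some of these markers changed sign between the sets. Prl8a2 of the decidua had ratios of -0.94 and -0.93 on the stage_matched and 0.77 and 0.25 on the age_matched arrays. Prl3d1 of the trophoblast had -0.11 and -0.68, then 0.79 and 0.18. Dcn split the same way with smaller ratios, and the other tested markers of both lists averaged below 0 in each set. What part these tissue shares have in the ratios below was not tested, and in whole embryos fewer cells of a type cannot be told apart from less RNA per cell.

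The main comparison asks whether the transcripts of TBP and of the factors that bind it differ between mutant and wild-type embryos. Of the 19 probes, 17 passed the filter on dim probes, and each of the 9 genes kept at least 1 of them. Tbpl1 rose at 1 probe, by 1.42-fold, and this was the 1 call among the 17, against 4.86% of all tested probes called in either direction. None was called lower (0 of 17), with 1 lower and 3 higher at an unadjusted p under 0.05, together 4 of 17 against 22.9% of all tested probes. The lower of these, of Gtf2a1, entered the test through its wild-type channel alone. The mean log2 ratios of mutant over wild type ran from -0.39 to 0.51 with a median of 0.05, beside -0.003 over all tested probes. Of the 17, 12 lay within 0.15 of 0, 14 were above 0 and 3 below. Of all 13634 tested genes, each at its brightest probe, 7371 were above 0. Several of the probes above 0 fell below it with median centring, Btaf1 at -0.0083 among them. On 14 probes the sign differed between arrays, while 2 of 17 were positive on all 4 arrays, against 12.5% of all tested probes, and 1 was negative on all 4, against 15.1%. The 95% intervals, not adjusted for the number of probes, reached 0.209 to 0.343 log2 units to either side. A call needed a larger difference than an interval clear of 0. Tbpl1 A_51_P422636 at 0.22 and Cand1 A_52_P161707 at 0.25 had such intervals and were not called. With 2 pairs of pools, differences of that size and smaller can go uncalled.

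**Figure D1:**
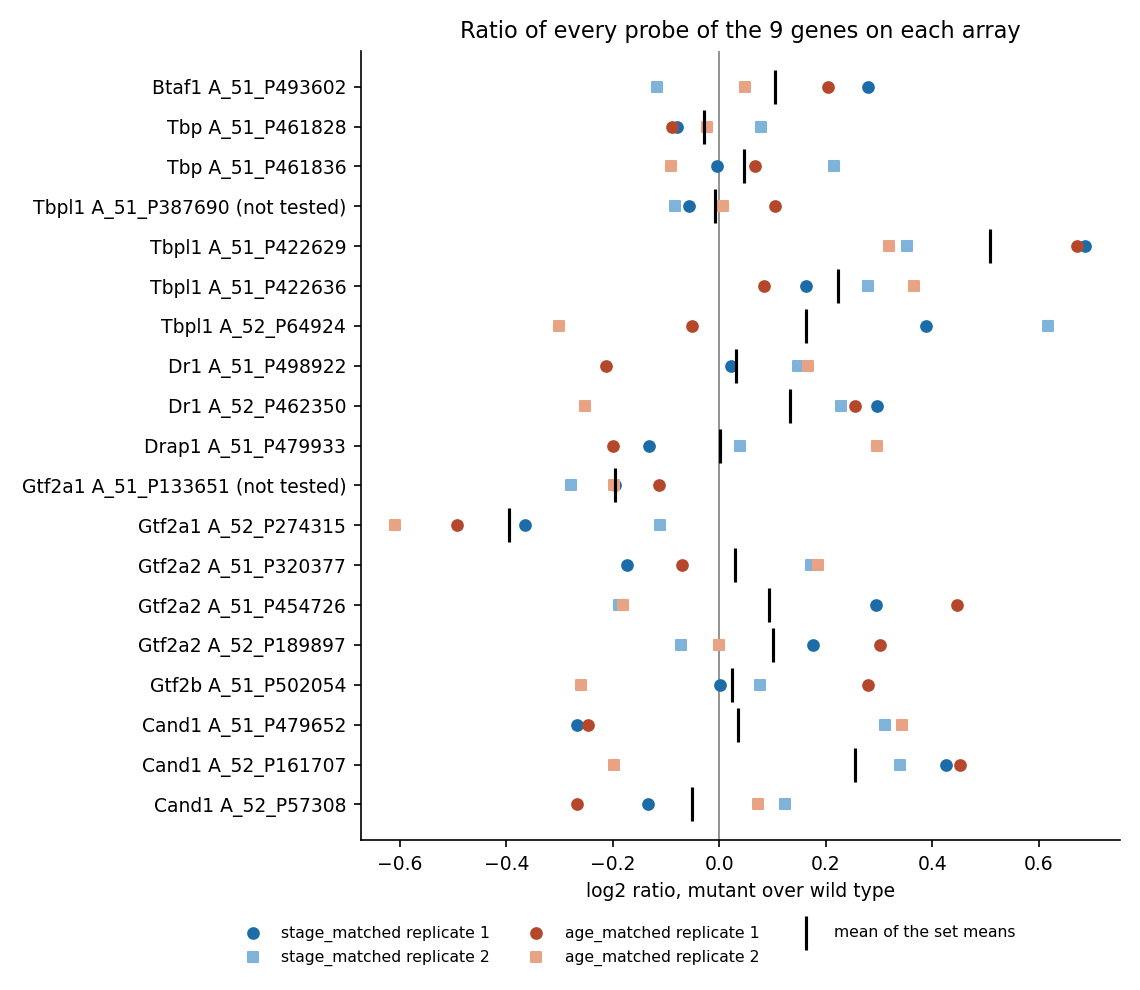
Log2 ratio of mutant over wild type (x axis) on each of the 4 arrays for each of the 19 probes (y axis), blue for stage_matched and red for age_matched, circles where the mutant was in Cy5 and squares where it was in Cy3; the black bar is the mean of the set means. Tbpl1 A_51_P422629 and A_51_P422636 are the tested probes right of 0 on every array, and Gtf2a1 A_52_P274315 is the tested probe left of 0 on every array.

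Btaf1, the mutated gene, was read by the probe A_51_P493602. Its normalized log2 intensity was 9.82 and 9.68 in the stage_matched mutant channels, against 9.54 and 9.80 in their wild-type channels. In the age_matched set it was 9.53 and 9.76 in mutant and 9.33 and 9.71 in wild-type channels. The levels of the genotypes overlapped, and mutant was above wild type on 3 of 4 arrays. The log2 ratios were 0.28, -0.12, 0.20 and 0.05 in the order stage_matched replicates 1 and 2 and age_matched replicates 1 and 2, an order kept for every probe below. The mean was 0.10 ± 0.03 (SD, n = 2), with a 95% interval of -0.11 to 0.31 and a limma adjusted p of 0.556. Leaving out stage_matched replicate 1 gave 0.0048 (adjusted p = 0.991) and leaving out stage_matched replicate 2 gave 0.20 (adjusted p = 0.317). Both arrays with the mutant in Cy5 lay above both with it in Cy3. With an array left out, its set reads the mutant in 1 dye only, so this dye difference no longer cancels. V1330M names an exchange of 1 amino acid, so this transcript level does not check which pool was mutant.

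Tbp, the target of BTAF1, was read by 2 probes 2795 bases apart. The A_51_P461828 probe, joined from separate genomic blocks within chr17:15650578-15651245, was printed on 10 spots of each array and so shows the spread within an array. On stage_matched replicate 1 its spots lay between -0.24 and 0.21 with an SD of 0.13 and a median of -0.06, and 2 of 10 were above 0. On stage_matched replicate 2 they lay between -0.001 and 0.21 with an SD of 0.07 and a median of 0.07, and 9 of 10 were above 0. The age_matched spots ran from -0.24 to 0.11 on replicate 1 (10 spots, SD 0.12) and from -0.15 to 0.13 on replicate 2 (7 unmarked spots, SD 0.09). On each array the spots of this probe spanned a wider range than the 4 array means did.

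Averaged over spots, the ratios of that Tbp probe were -0.08, 0.08, -0.09 and -0.02, with a mean of -0.03 ± 0.04 (SD, n = 2; limma adjusted p = 0.885). The A_51_P461836 probe at chr17:15653677-15653736 gave -0.005, 0.21, 0.07 and -0.09, with a mean of 0.05 ± 0.08 (SD, n = 2; limma adjusted p = 0.813). Neither Tbp probe passed the test, and on both the arrays fell on either side of 0. The 95% intervals, -0.24 to 0.18 and -0.17 to 0.26, are the limits that the fit gave for the difference in Tbp transcript.

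Tbpl1, the TBP-like gene, gave the call. At A_51_P422629 the log2 intensity was 13.61, 13.31, 13.67 and 13.50 in mutant channels, against 12.92, 12.96, 13.00 and 13.18 in wild-type channels. Every mutant value lay above every wild-type value. The ratios were 0.69, 0.35, 0.67 and 0.32, with a mean of 0.51 ± 0.02 (SD, n = 2; SE 0.0913; limma adjusted p = 0.0249) and a 95% interval of 0.30 to 0.72. The size went with the dye, since both arrays with the mutant in Cy5 gave about 0.7 and both with it in Cy3 about 0.3. The call was lost without stage_matched replicate 1 (0.42; adjusted p = 0.102) and without age_matched replicate 1 (0.42; adjusted p = 0.345), the arrays with the mutant in Cy5. Without either of these arrays its set has the mutant in Cy3 only, so the dye difference no longer cancels in the mean. The call was also lost with no background correction (0.51, limma adjusted p = 0.0597) and with median centring (0.46, limma adjusted p = 0.0572).

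The other sense probes of Tbpl1 were less even. A_51_P422636, the one nearest the start of the gene, had ratios of 0.16, 0.28, 0.08 and 0.36, with a mean of 0.22 ± 0.003 (SD, n = 2) and an interval of 0.01 to 0.43. All 4 arrays were above 0, but the probe did not pass (limma adjusted p = 0.195), and here the larger ratios came with the mutant in Cy3. A_52_P64924, the one nearest the end of the gene, had ratios of -0.05 and -0.30 on the age_matched arrays and of 0.39 and 0.62 on the stage_matched arrays. The sets did not overlap, and their mean, 0.16 ± 0.48 (SD, n = 2), did not pass (limma adjusted p = 0.573).

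This was the 1 of 17 probes whose ratio differed between the sets, against 2.4% of all tested probes in either direction and 0.73% lower in age_matched. Its age_matched minus stage_matched difference was -0.68 (SE 0.175; limma with set and dye as terms, adjusted p = 0.0104). That test takes its error from arrays of the same pools in opposite dyes, so it is technical. The difference lost its call with no background correction (-0.57, limma adjusted p = 0.412) and with processed signals (-0.79, limma adjusted p = 0.127). With median centring it was -0.87 and not called. There all of the 17 probes had the same adjusted p, so that setting sets none of them apart. At A_51_P422629, 929 bases away, the difference between the sets was -0.02 (adjusted p = 0.984), and at A_51_P422636 it was 0.004 (adjusted p = 0.998). The 3 sense probes of Tbpl1 thus differed in sign in the age_matched set and had the same sign in the stage_matched set.

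Sex-linked transcripts also differed between the sets. Xist, the RNA that coats the inactive X chromosome, had ratios of 0.53 and 1.02 on the age_matched arrays and of -0.75 and -1.25 on the stage_matched arrays. The Y-linked genes lay the other way. Eif2s3y had -0.67 and -0.95 on the age_matched arrays and 0.43 and 0.23 on the stage_matched arrays. Ddx3y had -0.38 and -1.32 on the age_matched arrays and 0.58 and 0.24 on the stage_matched arrays. Kdm5d had -0.79 and -0.60 on the age_matched arrays and -0.06 and 0.27 on the stage_matched arrays. These 4 genes thus differed between the same sets as A_52_P64924 of Tbpl1, and their part in its difference was not tested. The decidua marker Prl8a2 and the trophoblast marker Prl3d1 also changed sign between the sets, and their part was not tested either. The plus-strand probe A_51_P387690 was well above background on 0 of 4 arrays in either channel and was not tested. Its unfiltered ratios were -0.06, -0.08, 0.10 and 0.01.

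**Figure D2:**
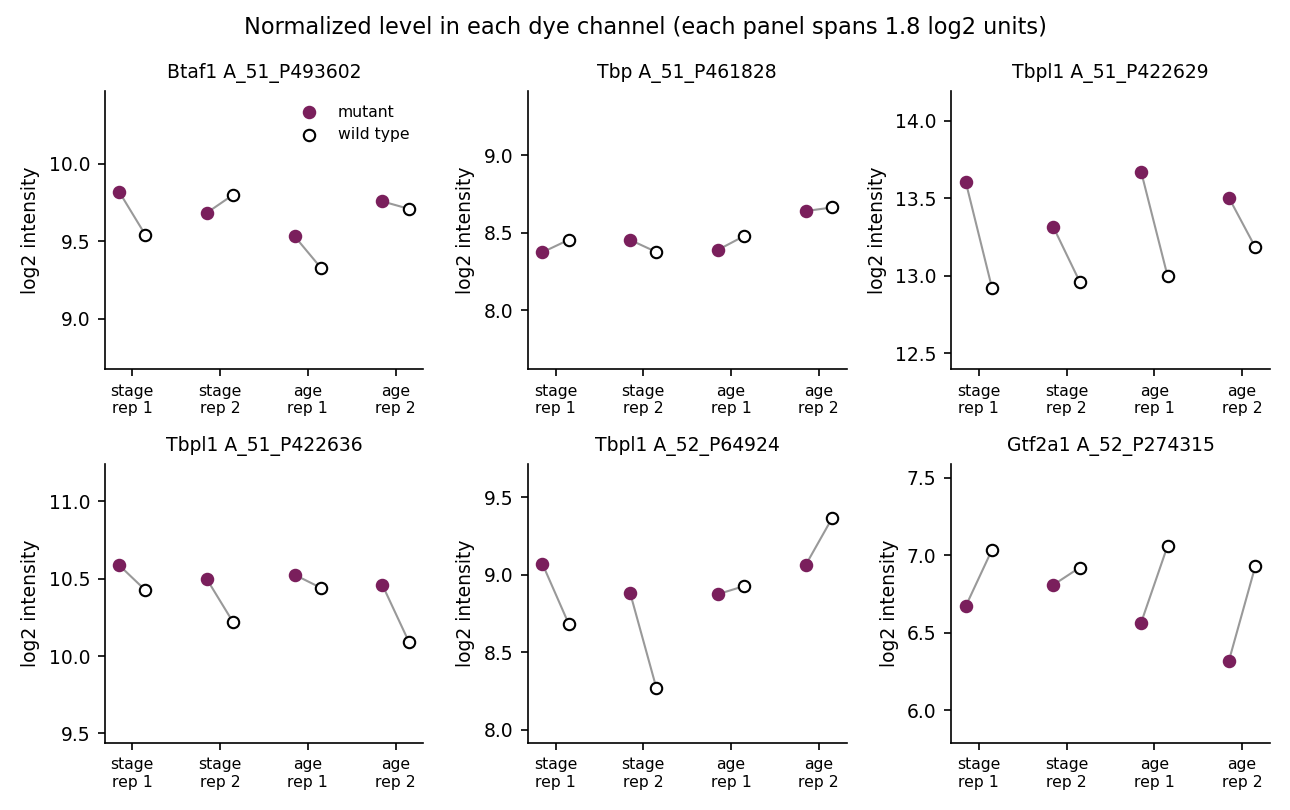
Normalized log2 intensity (y axis) of the mutant channel (filled) and the wild-type channel (open) on each array (x axis), joined by a line, for 6 probes of Btaf1, Tbp, Tbpl1 and Gtf2a1. At Tbpl1 A_51_P422629 the mutant channel is above the wild-type channel on all 4 arrays, at Tbpl1 A_52_P64924 it is below on the age_matched arrays and above on the stage_matched arrays, and at Gtf2a1 A_52_P274315 it is below on all 4.

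The NC2 subunits, which repress by holding TBP on DNA without TFIIA or TFIIB, showed no call. For Dr1, A_51_P498922 at chr5:108707849-108707908 had ratios of 0.02, 0.15, -0.21 and 0.17, with a mean of 0.03 ± 0.08 (SD, n = 2; limma adjusted p = 0.877). A_52_P462350, 982 bases further on at chr5:108708831-108708890, had 0.30, 0.23, 0.26 and -0.25, with a mean of 0.13 ± 0.18 (SD, n = 2; limma adjusted p = 0.493). On both Dr1 probes 3 of 4 arrays were above 0, but the exception was another array. Drap1, read at chr19:5423378-5423577, had -0.13, 0.04, -0.20 and 0.30. The mean of 0.0007 ± 0.07 (SD, n = 2; limma adjusted p = 0.998) was the nearest to 0 of the 17, and the ratio was negative on both arrays with the mutant in Cy5 and positive on both with it in Cy3. Drap1 shares chromosome 19 with Btaf1, at a distance of 31.7 Mb.

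Gtf2a1, which encodes the TFIIA precursor that the protease taspase 1 cuts into the alpha and beta subunits, had the lowest mean ratio of the tested probes, at a dim probe. At A_52_P274315 the log2 intensity was 6.67, 6.81, 6.57 and 6.32 in mutant channels, against 7.04, 6.92, 7.06 and 6.93 in wild-type channels. Every mutant value lay below every wild-type value, but the probe was well above background on 2 of 4 arrays in the mutant channel, against 4 of 4 in the wild-type channel. It entered the test through the wild-type channel alone, where it was brighter, and was not tested when both channels had to be above background, so the fit gives no support to its direction. The ratios were -0.37, -0.11, -0.49 and -0.61, with a mean of -0.39 ± 0.22 (SD, n = 2). It did not pass (limma adjusted p = 0.0733).

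The value of this Gtf2a1 probe moved with the background setting, and the same limit holds for each value. With the scanning software's processed signals the mean was -0.97 (limma adjusted p = 0.00490), and without stage_matched replicate 2 it was -0.46 (adjusted p = 0.0412). The authors' deposited table, which holds the ratios of those processed signals, gives -0.96, -0.47, -1.04 and -1.39 on the log2 scale. With no background correction the mean was -0.22 (limma adjusted p = 0.190), and the sign was kept in each setting that tested the probe. The neighbouring probe A_51_P133651 was well above background on 0 of 4 arrays in either channel and was not tested. Its unfiltered ratios were -0.20, -0.28, -0.11 and -0.20, and at this signal they give no direction.

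Gtf2a2, which encodes the gamma subunit of TFIIA, was read by 3 probes. A_51_P320377 at chr9:69863142-69863201 had ratios of -0.17, 0.17, -0.07 and 0.19, with a mean of 0.03 ± 0.04 (SD, n = 2; limma adjusted p = 0.886). A_51_P454726, which crosses chr9:69867284-69870264, had 0.29, -0.19, 0.45 and -0.18, with a mean of 0.09 ± 0.06 (SD, n = 2; limma adjusted p = 0.606). These probes of the same gene leaned to opposite dyes, the first positive with the mutant in Cy3 and the second with it in Cy5. A_52_P189897 at chr9:69870346-69870405 had 0.18, -0.07, 0.30 and 0.00001, with a mean of 0.10 ± 0.07 (SD, n = 2; limma adjusted p = 0.572). No Gtf2a2 probe passed the test.

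Gtf2b, which encodes TFIIB, the factor that bridges TBP and RNA polymerase II, was read at chr3:142446248-142446307. Its log2 intensity averaged 12.61 in mutant and 12.59 in wild-type channels. The ratios were 0.001, 0.08, 0.28 and -0.26, with a mean of 0.02 ± 0.02 (SD, n = 2; limma adjusted p = 0.905). The age_matched arrays, which read the same pools, gave opposite signs.

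Cand1 had 3 probes on the minus strand of chromosome 10. A_51_P479652 at chr10:118639485-118639544 had ratios of -0.27, 0.31, -0.25 and 0.34, with a mean of 0.03 ± 0.02 (SD, n = 2; limma adjusted p = 0.856). Its sign followed the dye on every array. A_52_P161707 at chr10:118636502-118636561 had 0.42, 0.34, 0.45 and -0.20, with a mean of 0.25 ± 0.18 (SD, n = 2; limma adjusted p = 0.185). A_52_P57308 at chr10:118639803-118639862, 318 bases from the first, had -0.13, 0.12, -0.27 and 0.07, with a mean of -0.05 ± 0.06 (SD, n = 2; limma adjusted p = 0.789). The Cand1 probes thus gave means on either side of 0 and no call.

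Several of these probes followed the dye more than the genotype. A dye component was taken as the difference between the mean ratio with the mutant in Cy5 and that with it in Cy3, divided by 2. It exceeded the mean ratio in absolute value on 11 of the 17 probes (64.7%), against 46.5% of all tested probes. The median absolute dye component was 0.14 on the 17 probes and 0.10 over all tested probes, while the median absolute mean ratio was 0.09 and 0.12. Cand1 A_51_P479652 had the dye component farthest from 0, -0.29, followed by Gtf2a2 A_51_P454726 with 0.28. At Tbpl1 A_51_P422629 it was 0.17 beside a mean ratio of 0.51, and at Gtf2a1 A_52_P274315 it was -0.03 beside -0.39. The component cancels in each set mean, since a set holds both orientations. It does not cancel where an array is left out, since its set then keeps only the other orientation.

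**Figure D3:**
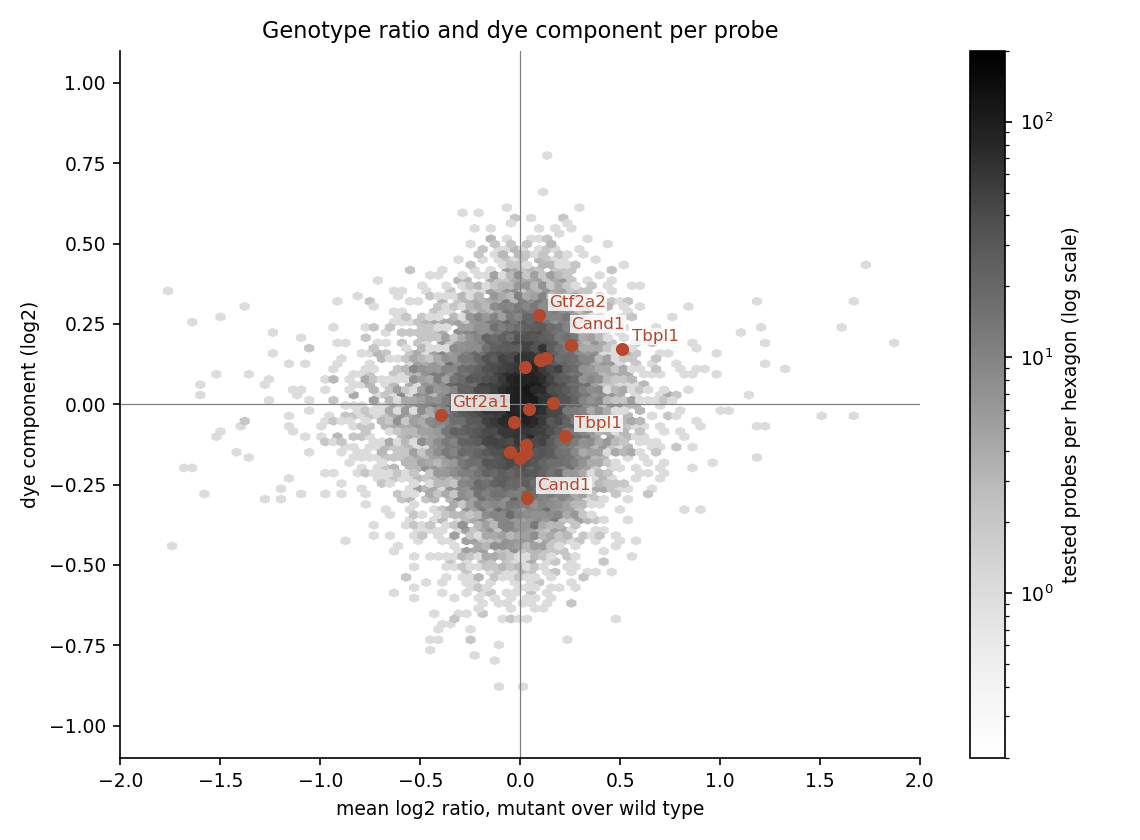
Dye component (y axis, log2) against the mean log2 ratio of mutant over wild type (x axis) for the 21930 tested probes, as grey hexagons whose shade counts probes on a log scale, with the 17 tested probes of the 9 genes in red and those far from the centre labelled by gene. Most red points lie near the vertical line and spread along the dye axis; Tbpl1 at 0.51 and Gtf2a1 at -0.39 lie to the sides.

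**Figure D4:**
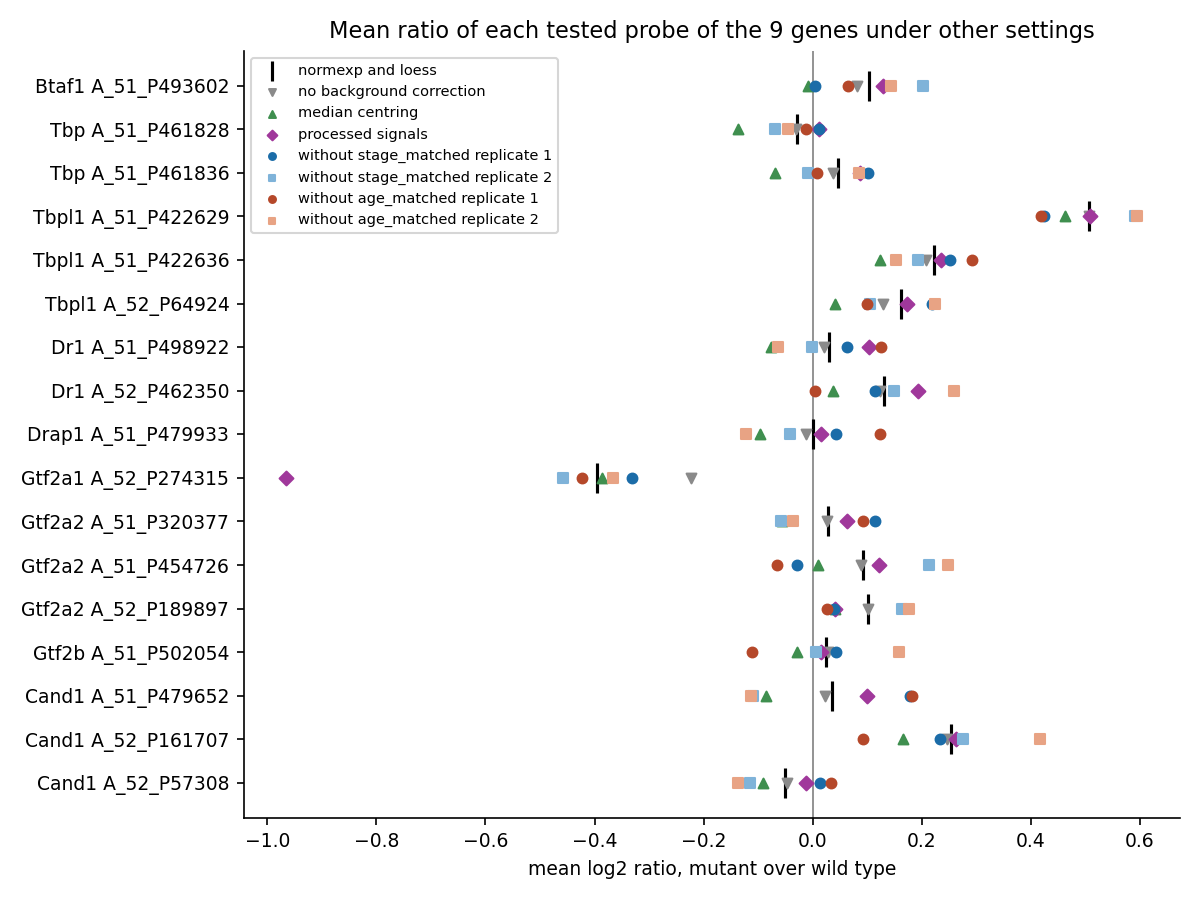
Mean log2 ratio of mutant over wild type (x axis) of each of the 17 tested probes (y axis) as reported (black bar) and under 7 other settings (symbols). Tbpl1 A_51_P422629 stays between 0.42 and 0.60 and Gtf2a1 A_52_P274315 between -0.97 and -0.22, while 10 of the other 15 probes have symbols on both sides of 0.

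The genes that work with these factors were taken at the brightest tested probe of each. Over all 13634 tested genes, 2.14% were called higher and 2.83% lower, 22.8% had an unadjusted p under 0.05, and the median ratio was 0.02. Of the TAF subunits that join TBP in TFIID, 15 of 16 were tested, 0 were called, 2 had an unadjusted limma p under 0.05, and the median was 0.05. Taf9b was the highest at 0.28 ± 0.20 (SD, n = 2; limma adjusted p = 0.160) and Taf6 the lowest at -0.12 ± 0.15 (adjusted p = 0.510). With processed signals Taf9b was 0.69 and passed (adjusted p = 0.0272). The partners of TBP at RNA polymerase I and III promoters (SL1, TFIIIB and SNAPc) had 12 of 12 tested, 0 called, 2 at the unadjusted threshold and a median of 0.03. Snapc5 lay highest at 0.25 ± 0.04 (adjusted p = 0.152), and Taf1d, an SL1 subunit, lay lowest at -0.34 ± 0.20 (adjusted p = 0.0997). At the brightest probes neither group of TBP partners held a call as reported, and Taf9b gained its call with processed signals. Other probes of a gene could differ. Bdp1, a TFIIIB subunit, was 0.11 at its brightest probe and -0.30 as the mean of its 3 tested probes.

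Of the paralogs of the members and the TFIIA protease Tasp1, 5 of 6 were tested, 0 were called, 1 had an unadjusted limma p under 0.05, and the median was -0.0001. Gtf2a1l, the paralog of Gtf2a1 known from germ cells, was highest at 0.22 ± 0.05 (SD, n = 2; limma adjusted p = 0.209), and Brf1, a TFIIB-related subunit of TFIIIB, was lowest at -0.25 ± 0.26 (adjusted p = 0.224). With processed signals Gtf2a1l was 0.53 and passed (limma adjusted p = 0.0297). Tbpl2 was on the array but not tested. The coactivator SAGA, which can deliver TBP to promoters, had 17 of 18 subunits tested, 0 called, 3 at the unadjusted threshold and a median of -0.06. Its extremes were Eny2 at 0.23 ± 0.06 (adjusted p = 0.178) and Atxn7 at -0.36 ± 0.18 (adjusted p = 0.0823). Atxn7 was -0.73 and passed with processed signals (limma adjusted p = 0.00878). It was not tested when both channels had to be above background, so it entered the test through the channel of 1 genotype alone. Its wild-type channel was the brighter on every array, so the fit gives no support to its direction. The same limit holds for its pass and for its place among the 3 at the unadjusted threshold. The cullins and neddylation enzymes that CAND1 works with had 22 of 22 tested, 0 called, 2 at the unadjusted threshold and a median of 0.03, from -0.29 ± 0.05 at Nedd8 (adjusted p = 0.117) to 0.25 ± 0.15 at Dcun1d5 (adjusted p = 0.185).

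The genes around Btaf1 on chromosome 19 held calls, both lower. Within 1 Mb of the Btaf1 probe lay probes of 20 other genes, of which 15 were tested. Cyp26a1, which encodes an enzyme that breaks down retinoic acid, fell by 0.47 ± 0.02 (SD, n = 2; limma adjusted p = 0.0294), and Pcgf5, a Polycomb ring finger gene, fell by 0.43 ± 0.02 (adjusted p = 0.0390). Cyp26a1 had ratios of -0.37, -0.60, -0.37 and -0.55, and Pcgf5 had -0.27, -0.62, -0.05 and -0.79, so both were below 0 on all 4 arrays. Of the 15, 0 were called higher and 2 lower, against 2.14% and 2.83% of all tested genes. An unadjusted limma p under 0.05 was reached by 9 of the 15, against 22.8% of all tested genes. Which strain's DNA the pools of each genotype carried around Btaf1 is not given, and its part in these ratios was not tested. The median of the 15 was 0.004, with 8 above and 7 below 0.

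Neither call near Btaf1 held under every setting. For Cyp26a1 it was lost with no background correction (adjusted p = 0.0658) and without stage_matched replicate 2 (0.0539), age_matched replicate 1 (0.243) or age_matched replicate 2 (0.0964). For Pcgf5 it was lost with no background correction and with processed signals (both 0.0711) and without any of the 4 arrays, with adjusted p from 0.0533 without stage_matched replicate 1, through 0.0978 without stage_matched replicate 2 and 0.219 without age_matched replicate 1, to 0.343 without age_matched replicate 2. The nearest tested gene on each side of Btaf1 was Fgfbp3, which encodes a secreted FGF-binding protein, with its probe at -94.6 kb, and, on the other side, Marchf5, which encodes a mitochondrial ubiquitin ligase, with its probe at 209 kb. Fgfbp3 had 0.36, 0.20, 1.07 and 0.59, a mean of 0.56 ± 0.39 (SD, n = 2; limma adjusted p = 0.0533), and passed without stage_matched replicate 2 (0.59; adjusted p = 0.0248), with processed signals (0.70; adjusted p = 0.0284) and with both channels above background (0.56; adjusted p = 0.0492). Marchf5 had a mean of -0.01 ± 0.09 at its brighter probe (adjusted p = 0.960) and of 0.21 ± 0.08 at the other, A_51_P405668 (adjusted p = 0.217). Fgfbp3 was above 0 on all 4 arrays, and the Marchf5 probes on 1 and 3 of 4.

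Probes that were not the brightest of their gene passed at Ide and Myof. For Ide, the insulin-degrading enzyme, A_52_P266530 had a mean of -0.47 ± 0.04 (SD, n = 2; limma adjusted p = 0.0312), while its brighter probe A_51_P299644 had -0.38 ± 0.19 (adjusted p = 0.0737). For Myof, which encodes the membrane protein myoferlin, A_51_P478353 had 0.47 ± 0.16 (adjusted p = 0.0374), while its brighter probe A_51_P378589 had 0.33 ± 0.07 (adjusted p = 0.0798). The probes of each gene lay on the same side of 0. The Ide call was lost with no background correction (0.0712) and without each array, with adjusted p of 0.0526 and 0.0506 without stage_matched replicates 1 and 2 and of 0.243 and 0.102 without age_matched replicates 1 and 2. The Myof call was lost with no background correction (0.0887), median centring (0.111) or no filter (0.0574), without stage_matched replicate 1 (0.0690) and without age_matched replicate 1 (0.256) or 2 (0.119).

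**Figure D5:**
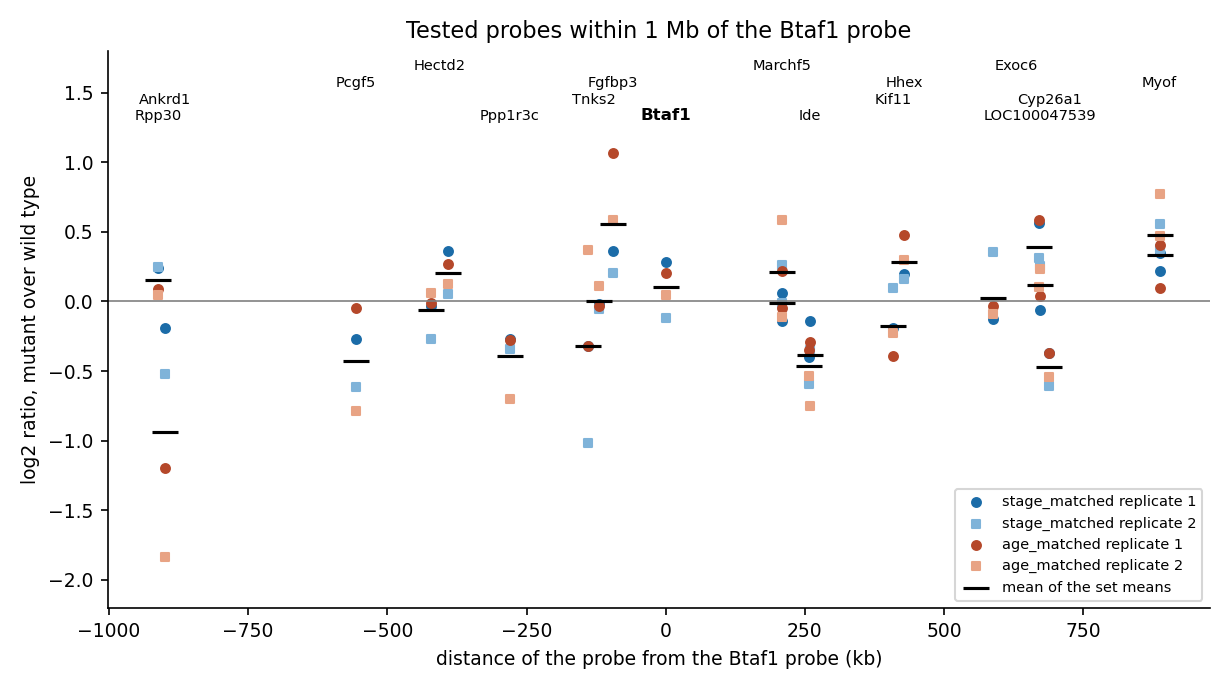
Log2 ratio of mutant over wild type (y axis) on each of the 4 arrays for every tested probe within 1 Mb of the Btaf1 probe, by its distance in kb (x axis), blue for stage_matched and red for age_matched, circles for replicate 1 and squares for replicate 2; black bars are means of the set means. Btaf1 stands near 0 at 0.10, Pcgf5 and Cyp26a1 have all 4 points below 0, and Fgfbp3 has all 4 above 0.

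The genes whose ratios were most like those of Btaf1 over the 4 arrays, by Euclidean distance among 13633 other tested genes, were Hsd3b4 (0.0346), Marco (0.0499) and Btd (0.0509). Hsd3b4 had ratios of 0.27, -0.12, 0.18 and 0.03, Marco had 0.28, -0.10, 0.20 and 0.0002, and Btd had 0.24, -0.09, 0.20 and 0.05. They lie on chromosomes 3, 1 and 14, and like Btaf1 had their higher ratios with the mutant in Cy5. With 4 arrays this likeness is a description of small values and no more.

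Since the group turns on TBP, the promoters of the genes were searched for the letters TATAAA on both strands, in windows of 300 bases from 250 before to 50 after each RefSeq start (GRCm38.p6). All 9 genes matched, with 10 windows. None held the motif on the strand of the gene, and 2 of 10, those of Gtf2a2 and Drap1, held it on the opposite strand, against 13.6% of all 32851 windows on either strand. The GC content of the 10 windows ran from 47% to 73.3%. A missing match says no more than that these letters are not in the window.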

How the data were processed

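Spot and background intensity in both dyes were deposited by the authors as scanner output, with mean signal and median background not normalized and the processed intensity background-subtracted, detrended and dye-normalized, per the file headers. The log10 ratio in the authors' deposited table is that of the processed intensities as mutant over wild type, differing from the scanner column by at most 5e-06. The file headers name Feature Extraction 10.5.1.1 and the labels 9.5.3. Here spots that the software had marked were dropped, limma 3.58.1 in R 4.3.3 corrected background (normexp, offset 50) and dye bias (loess within each array, control spots at weight 0), the sign was turned where dyes were exchanged, and spots of a probe were averaged. A probe was tested if well above background on all 4 arrays in the mutant or in the wild-type channel; 36 more had a marked spot. For mutant over wild type, limma was fitted to the 2 set means (residual degrees of freedom 1, prior 7.20); for the difference between sets, to the 4 arrays with set and dye as terms. P-values are two-sided, adjusted by Benjamini-Hochberg over the 21930 tested probes and called under 0.05. Those for mutant over wild type rest on the spread between 2 pairs of pools, with an error drawn mostly from the prior shared by all tested probes. Those for the difference between sets rest on the spread between arrays of the same pools. The 4 arrays limit the precision. The scripts were tested on simulated data. RefSeq tables gave names (25097 probes by accession) and promoter windows. Named were every probe of the 9 genes, called genes of each list and otherwise its highest and lowest, the neighbours of Btaf1 and the 3 genes most like it. Ide and Myof are named for probes past the threshold. The members and lists were chosen with earlier results of these data known. Alternatives changed background correction, normalization, filter, probe choice and arrays.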

Additional observations from a re-analysis of the deposited data

Results flagged for a closer look

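The age_matched minus stage_matched difference of Tbpl1 at A_52_P64924, -0.68 on the log2 scale, stood out because the 2 sets of pools differed by a test of the difference itself (limma, adjusted p = 0.0104). Its ratios were -0.05 and -0.30 in the age_matched set and 0.39 and 0.62 in the stage_matched set.

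By the same test the sex-linked genes differed between the sets, by 1.78 at Xist, -1.26 at Ddx3y, -1.14 at Eif2s3y and -0.80 at Kdm5d for age_matched minus stage_matched (limma adjusted p at most 0.000962). The test takes its error from arrays of the same pools.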

How the results depend on the processing

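Each ratio is paired within its array, which sets a mutant pool against a wild-type pool; the labels give no replicate numbers to add as a block. Of 203 recomputed ratios of the 17 tested probes, 169 kept their direction and side of the threshold (or moved less than the spread). In refits 24 changed sign, 4 lost and 2 gained a call, and 4 ratios without a refit moved beyond the spread. Ratios of each set alone and of the deposited table were not refitted. For uncalled probes they were judged by the spread only, so their sign changes are not among the 24. An example is Tbpl1 A_52_P64924, 0.16 as reported and -0.18 in the age_matched set alone. A set alone always lies within the spread of the set means, so these ratios could not move beyond it. A change of filter left each ratio as it was and could alter only its call. The deposited table repeats the processed signals. The 169 therefore include ratios that could not have changed. The count of probes of the 9 genes called higher was 0 with no background correction and with median centring, and 0 to 1 without an array. Gtf2a1 A_52_P274315 raised the lower count to 1 with processed signals, and leaving out an array gave 0 to 1. The set difference had a count of 0 with no background correction, median centring and processed signals. Over all probes, calls were 22 higher and 47 lower with no background correction, 130 and 871 with median centring, 748 and 1082 with processed signals, 209 and 386 with no filter, and 10 to 395 higher and 13 to 816 lower without an array, the lowest without age_matched replicate 1. Median centring shifted the median of all tested probes to -0.07 and gave -0.0083 for Btaf1, -0.069 for Tbp A_51_P461836, -0.076 for Dr1 A_51_P498922, -0.096 for Drap1, -0.056 for Gtf2a2 A_51_P320377, -0.028 for Gtf2b and -0.085 for Cand1 A_51_P479652. Its list medians were -0.014 (TFIID), -0.080 (SL1, TFIIIB and SNAPc), -0.11 (paralogs), -0.15 (SAGA) and -0.060 (cullins). The mean of all probes of a gene gave 0.023 for TFIID and 0.069 near Btaf1. Median centring gave differences between the sets of -0.18 for Btaf1, -0.21 for Tbpl1 A_51_P422636, -0.11 for Drap1, -0.15, -0.13 and -0.095 for Gtf2a2 and -0.19 for Cand1 A_51_P479652; with no background correction that of Tbpl1 A_51_P422636 was -0.0021. Processed signals gave 0.012 for Tbp A_51_P461828 and 0.023 for Marchf5, and no background correction gave -0.011 for Drap1. Without an array, ratios ranged from 0.0048 to 0.20 for Btaf1, from 0.092 to 0.42 for Cand1 A_52_P161707, from -0.49 to -0.077 for Nedd8, from -0.068 to 0.011 and from -0.0085 to 0.10 for Tbp, from -0.064 to 0.13 for Dr1 A_51_P498922, from -0.12 to 0.12 for Drap1, from -0.058 to 0.11 and from -0.065 to 0.25 for Gtf2a2 A_51_P320377 and A_51_P454726, from -0.11 to 0.16 for Gtf2b, from -0.11 to 0.18 and from -0.14 to 0.034 for Cand1 A_51_P479652 and A_52_P57308, from -0.45 to 0.20 for Taf6, from -0.0071 to 0.50 for Dcun1d5 and from -0.093 to 0.071 for Marchf5. The values of neighbours and list genes under other settings were chosen after seeing the data. A ratio without an array holds an uncancelled part of the dye component, since its set is left with 1 orientation. Other causes of these changes were not tested. Dim signal limits the Gtf2a1 probes, the plus-strand Tbpl1 probe and Atxn7. Taf9b and Gtf2a1l were also dim, though above background in both channels. Their mean log2 intensities in mutant and wild type were 7.14 and 6.86 for Taf9b and 7.11 and 6.89 for Gtf2a1l. That limits their calls with processed signals.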
